A study of Saccharomyces cerevisiae with 16 samples.

Results

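The comparison described here sets budding yeast carrying the H3 H113N substitution against wild-type (WT) yeast, with the frataxin gene YFH1 on in both (their genotype labels name no change to its promoter), and so asks how transcripts differed between the H3 genotypes without frataxin shutoff. It rests on 8 of the 16 libraries of the series, 4 from H113N and 4 from WT, each set numbered 2 to 5, and the genotypes were labelled H3H113N and wild type. The other 8 libraries came from the same pair of H3 genotypes with YFH1 placed behind the GAL1 promoter and turned off, and they entered the filter on low counts, the average levels of genes and the model fit, and the H113N effect in them is set beside the main one at the end and where an effect differed. Per the labels' protocols, whose wording is for the cells with YFH1 off but which stand on all samples, cells were shifted from glycerol medium (YPG) to synthetic complete (SC) medium at an OD600 of 1, kept at 30 °C with a dilution every 12 h over 36 h, and grown 8 h more, 44 h in total. The labels do not say whether 1 or both H3 genes were mutated, how many clones were used, or whether the numbered replicates were separate cultures, so p-values measure the spread between these libraries, which may be technical. All libraries were of polyadenylated RNA.

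Histone H3 is 1 of the 4 core histones that wrap DNA in the nucleosome, and in budding yeast it is encoded by a pair of genes, HHT1 and HHT2, each transcribed away from a gene for histone H4 (HHF1 and HHF2). The histidine replaced in H113N lies where the H3 copies of a nucleosome meet, and the series title ties the H3 protein to an enzymatic activity that reduces copper. H113N puts asparagine in that position. YFH1 encodes frataxin, a mitochondrial protein that acts in building iron-sulfur clusters, and cells that lack it switch on iron uptake. The reference stretches around the mutated codon are shown because the substitution defines the comparison. They are from RefSeq assembly R64, the build called sacCer3 in the submitters' processing notes, 5′ to 3′ on the coding strand, with the codon of that histidine, CAC in both genes, in capitals. HHT1 is read from chrII:256640-256702 on the + strand and HHT2 from chrXIV:575679-575741 on the - strand, each within the single exon of its gene, and the base changed in the mutant is not given in the labels.
HHT1: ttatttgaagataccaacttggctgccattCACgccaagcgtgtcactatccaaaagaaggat
HHT2: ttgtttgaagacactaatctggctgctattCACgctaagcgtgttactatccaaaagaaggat

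Total counts ran from 7125906 to 8680278 in the H113N libraries and from 8135080 to 8877716 in the WT libraries, and levels are given as CPM, counts scaled to a common library size. At that depth 3 counts, the floor used here, stand at 0.328 to 0.387 CPM. One WT library stood apart: in WT replicate 2, 8.88% of genes lay far from the other 3 libraries of their group by Dixon's test, against 0.783% to 1.79% in the other 7 libraries, so results that turn on it are also given without it. YFH1 itself had 49.8, 52.5, 58.5 and 46.5 CPM in the H113N libraries, against 67.9, 63.2, 62.9 and 59.9 CPM in the WT libraries, so all 4 H113N libraries lay below all 4 WT libraries and the transcript fell by 0.29 on the log2 scale (log2 fold change -0.29 ± 0.10, SE; BH-adjusted p = 0.02, edgeR quasi-likelihood test). That call was lost without replicate 2 of both groups (adjusted p = 0.051), without replicate 3 (0.108) and without replicate 5 (0.0739), and with libraries scaled by their size only (0.0793). The strains showed the transcripts of mating type a: the a-factor gene MFA2 averaged 255 ± 9.1 CPM in H113N and 177 ± 12 CPM in WT, while the genes of the MATalpha and HML cassettes had 0 or 1 counts in every one of the 16 libraries. Every 50-base word of those genes occurs more than once in R64, so their reads may have gone uncounted and these counts do not show whether they were transcribed. Both H3 genes were transcribed in both genotypes. HHT2 had 639.8, 638, 666 and 702 CPM in the H113N libraries, against 643, 698, 677 and 777 CPM in the WT libraries, and its groups overlapped (log2 fold change -0.08 ± 0.06, BH-adjusted p = 0.28 by edgeR). HHT1 is described with the other histones and with chromosome II.

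H113N cells differed from WT cells by small amounts in many transcripts, and most of the large differences were increases. Genes of chromosomes I and II are kept apart throughout, because both chromosomes were shifted upward along their length, as described at the end. Of the 5370 genes tested on the other chromosomes, 2440 (45.4%) passed a BH-adjusted p of 0.05 in edgeR's quasi-likelihood test, of which 1107 (20.6% of those tested) were higher and 1333 (24.8%) lower in H113N. The counts in the gene lists below are to be read beside these shares. At a change of 2-fold or more the count was 344 higher (6.41%) and 39 lower (0.726%). In 906 genes (16.9%) all 4 H113N libraries lay above all 4 WT libraries, and in 1046 (19.5%) all 4 lay below. Scaling by library size alone moved the share of calls that were higher to 62.3%, against 45.4% with the TMM scaling used here, and the median log2 fold change outside chromosomes I and II to 0.06 against -0.01, so the balance of small rises and falls depends on the scaling. Without replicate 3, 4 or 5 the count of 2440 fell to 1798, 1859 or 1888, and to 1850 in the fit of only the H113N and WT libraries. Without replicate 2 it rose to 2579.

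The share of rises was highest among scarce transcripts. In the eighth of genes with the lowest average level, 45.5% were higher and 4.91% lower in H113N, with a median log2 fold change of 0.52, and 34.8% were called at least 2-fold higher. A gene entered the test when at least 4 of the 16 libraries reached 1.17 CPM, so scarce genes that passed only through the H113N libraries had to be higher there, and this eighth holds such genes. In the eighth with the highest level, 11.8% were higher and 41% lower, with a median of -0.10. With a minimum of 10 counts in every library, which removes genes that were near 0 in WT, 147 genes outside chromosomes I and II were called at least 2-fold higher, against 344 without it. The share of rises was also higher near chromosome ends. Within 10 kb of a chromosome end 58.3% of 48 tested genes were higher and 4.17% lower, from 10 to 20 kb 40.4% of 94 were higher, from 20 to 30 kb 30.8% of 117, and beyond 100 kb 19.4% of 3972. Genes near the ends were also scarcer, so the same count was taken by level. Among genes whose mean log2 CPM was 3 or more, 39.8% of 83 within 20 kb of an end were higher in H113N, against 17% of 4664 farther in. Below that level the shares were close, at 55.9% of 59 genes within 20 kb and 51.9% of 349 farther in. Of 209 tested entries that have no gene model in RefSeq, with a median log2 CPM of 1.25, 30.6% were higher and 4.78% lower.

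**Figure D1:**
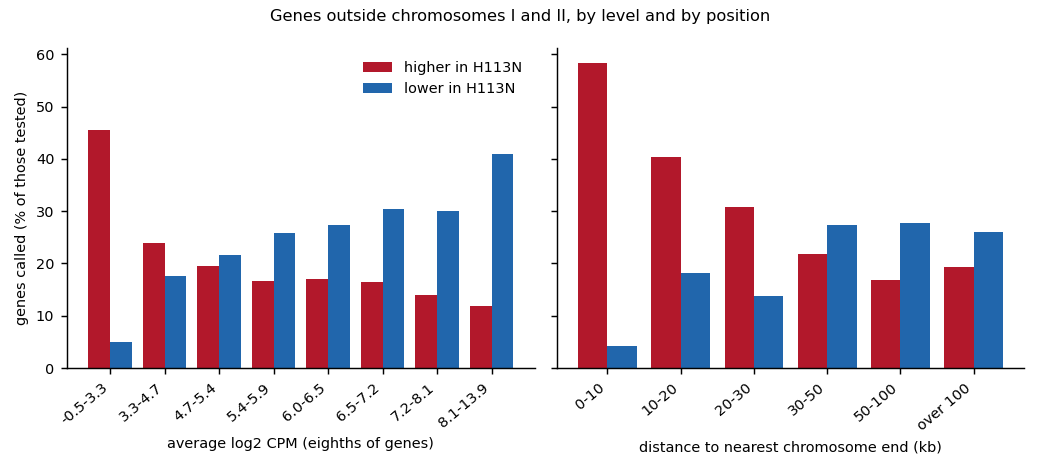
Share of tested genes outside chromosomes I and II that were called higher (red) or lower (blue) in H113N than in WT at a BH-adjusted p of 0.05, by eighths of average log2 CPM (left) and by distance to the nearest chromosome end in kb (right). The share called higher is 45.5% in the lowest eighth of level and 58.3% within 10 kb of an end, and the share called lower is 41% in the highest eighth.

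The 10 largest rises among genes whose mean log2 CPM was 3 or more, and whose groups did not overlap, were in transcripts that WT cells held at low levels. That mean is over all 16 libraries, so genes near 1 CPM in WT met the cut only through groups where they were higher. Their low WT levels are therefore partly a result of the choice. The largest was in MF(ALPHA)1, which encodes the mating pheromone that alpha cells secrete and that a cells do not make. It had 33.1, 32.5, 29.4 and 35.9 CPM in the H113N libraries, against 1.15, 1.24, 0.724 and 1.36 CPM in the WT libraries, a 28.8-fold rise with no overlap (log2 fold change 4.85 ± 0.20, BH-adjusted p = 3.97e-11, edgeR). ADH2, the alcohol dehydrogenase that turns ethanol back into acetaldehyde and is shut off by glucose, had 116, 99.2, 118 and 118 CPM in the H113N libraries, against 5.18, 5.33, 3.02 and 5.32 CPM in the WT libraries, and rose 23.9-fold. POT1, the thiolase of peroxisomal fatty acid breakdown, had 25.5, 27.6, 27.5 and 21.4 CPM in the H113N libraries, against 1.04, 0.743, 1.57 and 1.36 CPM in the WT libraries. The 4 H113N libraries of each of these genes lay within a narrow range far above WT. RNA was taken from whole cultures, so more RNA per cell and more cells that hold the RNA cannot be told apart.

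Of the other 7, PDC6, a minor pyruvate decarboxylase, averaged 24 ± 3.32 CPM in H113N and 1.74 ± 0.499 CPM in WT (SD, n = 4 each). DAK2, a dihydroxyacetone kinase, averaged 21.2 ± 3.4 CPM in H113N and 1.33 ± 0.432 CPM in WT, and HUG1, a small inhibitor of ribonucleotide reductase that is switched on by DNA damage, 20.8 ± 3.31 CPM in H113N and 1.37 ± 0.581 CPM in WT. YGR066C, named GID10 in RefSeq for an alternative substrate receptor of the GID ubiquitin ligase, averaged 14 ± 1.32 CPM in H113N and 0.86 ± 0.474 CPM in WT. PAU5, of the seripauperin family of cell wall proteins, averaged 14.4 ± 2.19 CPM in H113N and 0.889 ± 0.326 CPM in WT. The log2 fold changes of these 5 genes ran from 3.77 (PDC6) to 4.01 (YGR066C), with BH-adjusted p-values of 2.27e-08 or less by edgeR. YOR387C and VEL1, similar genes of unknown function, differed among the H113N libraries themselves: VEL1 had 68.6, 208, 94 and 225 CPM in the H113N libraries, against 4.26, 11.9, 8.57 and 10.4 CPM in the WT libraries, and YOR387C had 19.4, 53.4, 21 and 104 CPM in the H113N libraries, against 0.23, 3.1, 1.69 and 3.4 CPM in the WT libraries. In both genes H113N replicates 3 and 5 were the high ones, and the lowest H113N library still lay above the highest WT library. Parts of 3 of the 10 genes recur elsewhere in the genome, 14% of the 50-base words of ADH2, 14.3% of MF(ALPHA)1 and 24.7% of PAU5, and how reads that fit several genes were counted is not given in the sources used here.

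**Figure D2:**
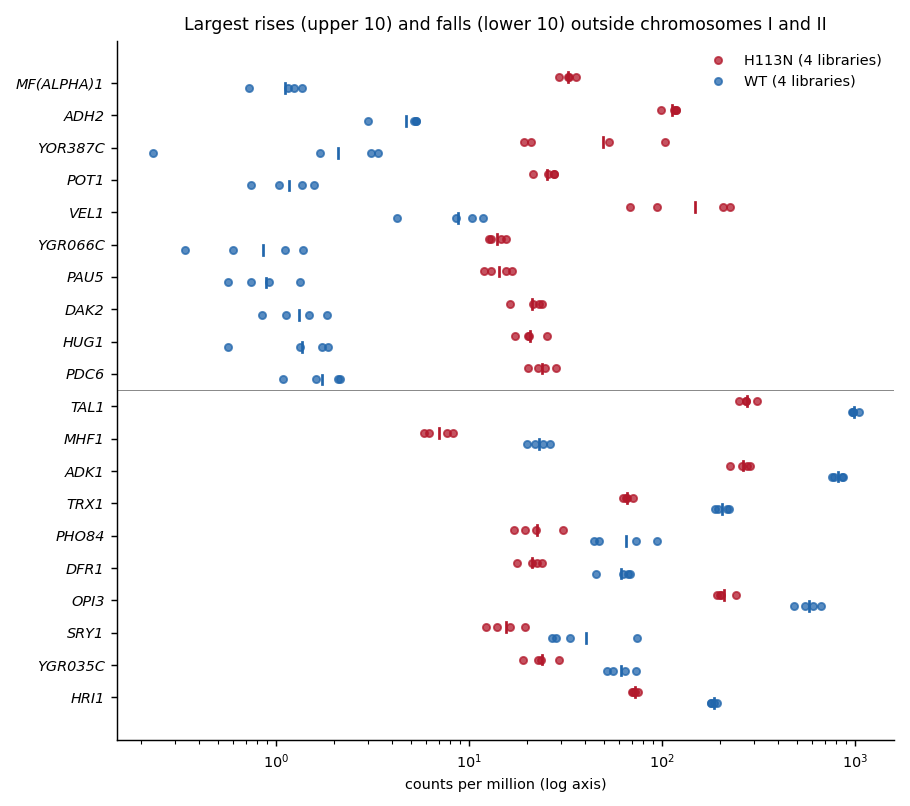
CPM (log axis) of the 10 largest rises and 10 largest falls outside chromosomes I and II, with 1 point a library (red H113N above, blue WT below) and a short bar at the mean of 4. The rises start from WT levels near or below 10 CPM, and the falls include transcripts of 988.7 CPM (TAL1) and 812.7 CPM (ADK1) in WT.

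The 10 largest falls were smaller and included abundant transcripts. TAL1, transaldolase of the pentose phosphate pathway, had 272, 250.1, 271 and 309.5 CPM in the H113N libraries, against 962, 1048, 974 and 972 CPM in the WT libraries, so H113N held 27.9% of the WT level (log2 fold change -1.84 ± 0.06, BH-adjusted p = 2.43e-12, edgeR). ADK1, the adenylate kinase that balances AMP, ADP and ATP, had 275, 225, 286 and 260.1 CPM in the H113N libraries, against 867, 852, 775 and 757 CPM in the WT libraries. TRX1, a cytosolic thioredoxin, had 70.8, 64.8, 66.2 and 62.8 CPM in the H113N libraries, against 188, 222, 195 and 216 CPM in the WT libraries. In all 3 genes the groups lay far apart, and the spread inside each group was small beside the gap. HRI1, which encodes a protein without a settled function, averaged 72 ± 2.37 CPM in H113N and 185 ± 6.48 CPM in WT. MHF1, a histone-fold protein of a DNA repair complex, averaged 6.99 ± 1.15 CPM in H113N and 23.2 ± 2.76 CPM in WT, and DFR1, dihydrofolate reductase, 21.3 ± 2.69 CPM in H113N and 61 ± 10.5 CPM in WT. OPI3, which carries out the last methylation steps of phosphatidylcholine synthesis, averaged 208 ± 22.3 CPM in H113N and 578 ± 77.6 CPM in WT and is taken up with its pathway. YGR035C, which RefSeq lists as uncharacterized, averaged 23.8 ± 4.25 CPM in H113N and 61.2 ± 9.56 CPM in WT. PHO84, the high-affinity phosphate transporter, had 22.2, 30.8, 19.6 and 17.2 CPM in the H113N libraries, against 44.7, 73.3, 47.1 and 93.9 CPM in the WT libraries, with a wide range in WT. It overlaps a non-coding gene on the annotation, and the use of strand in counting is not given in the sources used here. SRY1, which degrades hydroxyaspartate, had 16.3, 12.3, 19.6 and 14 CPM in the H113N libraries, against 74, 33.3, 28.2 and 26.8 CPM in the WT libraries, so its WT mean was raised by WT replicate 2, and without that library the log2 fold change was -0.91.

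Budding yeast growing on glucose keeps the genes for other carbon sources off, and genes of gluconeogenesis, the glyoxylate cycle and fatty acid breakdown come on when glucose is spent. Outside chromosomes I and II, 8 of the 11 tested genes of gluconeogenesis and the glyoxylate cycle were higher in H113N and 1 was lower, against 20.6% and 24.8% of all genes, and the median log2 fold change was 2.16 against -0.01 over all genes. With at least 10 counts in every library 9 members were tested, 6 of them higher and 1 lower, and the median was 1.05. JEN1, the transporter of lactate and pyruvate, had 31.3, 31.5, 31.2 and 32 CPM in the H113N libraries, against 6.22, 5.08, 4.83 and 2.49 CPM in the WT libraries. MLS1, malate synthase, had 41.1, 28.9, 40.6 and 49.1 CPM in the H113N libraries, against 4.03, 5.08, 3.14 and 6.46 CPM in the WT libraries. In both genes every H113N library was several times above every WT library. PCK1 and FBP1, the committing enzymes of gluconeogenesis, averaged 46.3 ± 9.31 CPM in H113N and 10.2 ± 4.16 CPM in WT for PCK1 and 11.9 ± 1.85 CPM in H113N and 2.65 ± 0.727 CPM in WT for FBP1. ICL1, isocitrate lyase, averaged 70 ± 11.6 CPM in H113N and 34.5 ± 3.21 CPM in WT, and SIP4, a regulator of these genes, 9.76 ± 0.922 CPM in H113N and 0.946 ± 0.146 CPM in WT. ADR1, the activator of ADH2 and of fatty acid breakdown, rose 2.03-fold, while CAT8, the regulator above SIP4, had 7.9, 8.9, 11.5 and 12.7 CPM in the H113N libraries, against 10.9, 6.32, 7.0 and 6.57 CPM in the WT libraries and did not pass (adjusted p = 0.122). Without WT replicate 2, CAT8 passed (log2 fold change 0.63, adjusted p = 0.0127). The member that fell was MDH3, the peroxisomal malate dehydrogenase, at 78.1% of WT, and MDH2, the cytosolic one, averaged 31 ± 4.68 CPM in H113N and 34.1 ± 5.82 CPM in WT with adjusted p = 0.433.

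Peroxisomal beta-oxidation had 9 of 16 members higher and 2 lower, with a median log2 fold change of 0.51, or 6 of 13 higher, 2 lower and a median of 0.22 with at least 10 counts in every library. POT1 led the list, and CAT2, carnitine acetyltransferase, had 20.9, 20.9, 21.6 and 20.8 CPM in the H113N libraries, against 9.21, 7.19, 7.96 and 7.25 CPM in the WT libraries. Among hexose transporters and glucose sensors 13 of 21 were higher and 2 lower, median 0.84. Most of the risers were scarce in WT, but the abundant HXT3, a low-affinity transporter, also rose, with 3571, 2928, 2941 and 3320 CPM in the H113N libraries, against 1458, 1962, 1733 and 1953 CPM in the WT libraries. HXT4 had 1024, 537, 748 and 781 CPM in the H113N libraries, against 222, 206, 215 and 203 CPM in the WT libraries, with replicate 2 the highest, and HXT5, a transporter of slow growth, averaged 21.9 ± 1.77 CPM in H113N and 3.04 ± 0.40 CPM in WT. The members that fell were the glucose repressors MIG1 (-0.52 ± 0.07) and MIG2 (-0.29 ± 0.09), whose call was lost without replicate 3 (adjusted p = 0.104), 4 (0.0607) or 5 (0.145). With at least 10 counts in every library 14 members of this list were tested, 6 of them higher and 2 lower, and the median was 0.23. In fermentation 7 of 15 were higher and 5 lower, and the median of -0.06 turned to 0.42 without WT replicate 2. PDC5, the second pyruvate decarboxylase, had 155, 182, 172 and 178 CPM in the H113N libraries, against 45.5, 50.7, 52.7 and 53.3 CPM in the WT libraries, whereas PDC1, the main one, averaged 13680 ± 1464 CPM in H113N and 14310 ± 671 CPM in WT and did not pass (adjusted p = 0.473). Glycolysis moved the other way: 9 of 15 members fell (60%) and none was called higher, with a median of -0.28. In the eighth of all genes with the highest level 41% were lower, with a median of -0.10. ENO2, enolase, had 4981, 5304, 5354 and 5803 CPM in the H113N libraries, against 9921, 10690, 10070 and 9918 CPM in the WT libraries, PGK1 stood at 59.2% and FBA1, aldolase, at 73% of WT. In 23.6% of the 50-base words of ENO2 the sequence is repeated elsewhere, so its reads may be split with a near copy. Without WT replicate 2, 1 glycolysis gene was called higher.

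Iron uptake in budding yeast is run by the activators Aft1 and Aft2, which switch on the genes of the iron regulon when iron-sulfur clusters are short: cell wall mannoproteins that hold siderophores (FIT1, FIT2, FIT3), metal reductases (the FRE genes), siderophore transporters (SIT1, the ARN genes) and the copper-dependent ferroxidase FET3 with its permease FTR1. H113N cells held more of these transcripts with YFH1 on. Of 31 members outside chromosomes I and II, 20 were higher and 1, ISU1, was lower (a call lost in 5 alternatives, among them scaling by library size, adjusted p = 0.173), with a median log2 fold change of 0.55 and 12 members at least 2-fold up. Aft1 and Aft2 bind the core TGCACCC. That heptamer, searched on both strands over the 500 bases before the start codon, was present in 2.33% of 5155 genes outside chromosomes I and II and in 23 of the 31 iron genes. It stood before 19 of the 20 that rose, before ISU1, which fell, and before 3 of the 10 that did not pass. It was also in 26 of the 293 genes with a gene model that were at least 2-fold higher (8.87%), a count that includes the iron genes. A match describes letters and not binding. The stretches that hold the heptamers upstream of FIT3, FIT2 and SIT1, members chosen after their values were seen for FIT2 and SIT1, are shown from RefSeq R64, 5′ to 3′ on the strand of the gene, with the heptamer or its reverse complement GGGTGCA in capitals. They come from chrXV:1061218-1061355 (- strand), chrXV:1059185-1059421 (+ strand) and chrV:27454-27490 (+ strand).
FIT3: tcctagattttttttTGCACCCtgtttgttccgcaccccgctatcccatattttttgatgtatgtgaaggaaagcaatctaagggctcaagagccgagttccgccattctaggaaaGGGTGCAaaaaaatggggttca
FIT2: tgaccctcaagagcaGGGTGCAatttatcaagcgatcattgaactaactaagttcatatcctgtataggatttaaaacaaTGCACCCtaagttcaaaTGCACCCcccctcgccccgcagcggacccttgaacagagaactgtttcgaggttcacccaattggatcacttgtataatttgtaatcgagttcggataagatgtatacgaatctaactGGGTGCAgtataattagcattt
SIT1: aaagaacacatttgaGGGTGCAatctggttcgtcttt

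FIT3 had 822, 601, 1030 and 1418 CPM in the H113N libraries, against 63.5, 101, 106 and 144 CPM in the WT libraries, a 9.34-fold rise (log2 fold change 3.22 ± 0.24, BH-adjusted p = 2.62e-08, edgeR). FIT2, its neighbour on the chromosome, had 866, 607, 903 and 1167 CPM in the H113N libraries, against 55.5, 143, 146 and 188 CPM in the WT libraries. The groups did not overlap in either gene, and WT replicate 2 was the lowest WT library in both. SIT1 had 618, 582, 631 and 779 CPM in the H113N libraries, against 75.9, 235, 229.9 and 262 CPM in the WT libraries. FRE5 had 30.5, 25.2, 35.5 and 39.7 CPM in the H113N libraries, against 1.61, 7.06, 7.0 and 6.57 CPM in the WT libraries, and FRE2, a ferric and cupric reductase of the cell surface, averaged 62.4 ± 15.9 CPM in H113N and 16.4 ± 2.57 CPM in WT. FET3 had 2896, 2485, 2863 and 3506 CPM in the H113N libraries, against 764, 1911, 2020 and 2235 CPM in the WT libraries, again with WT replicate 2 far below the other WT libraries, and its call was lost in the fit of only the H113N and WT libraries (adjusted p = 0.0594). That library lowered the WT means of this pathway, and leaving it out gave 17 members higher, 2 lower and a median of 0.40. The transcript of AFT1 itself averaged 161 ± 7.33 CPM in H113N and 151 ± 13.1 CPM in WT and did not pass (log2 fold change 0.10 ± 0.06, adjusted p = 0.179).

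**Figure D3:**
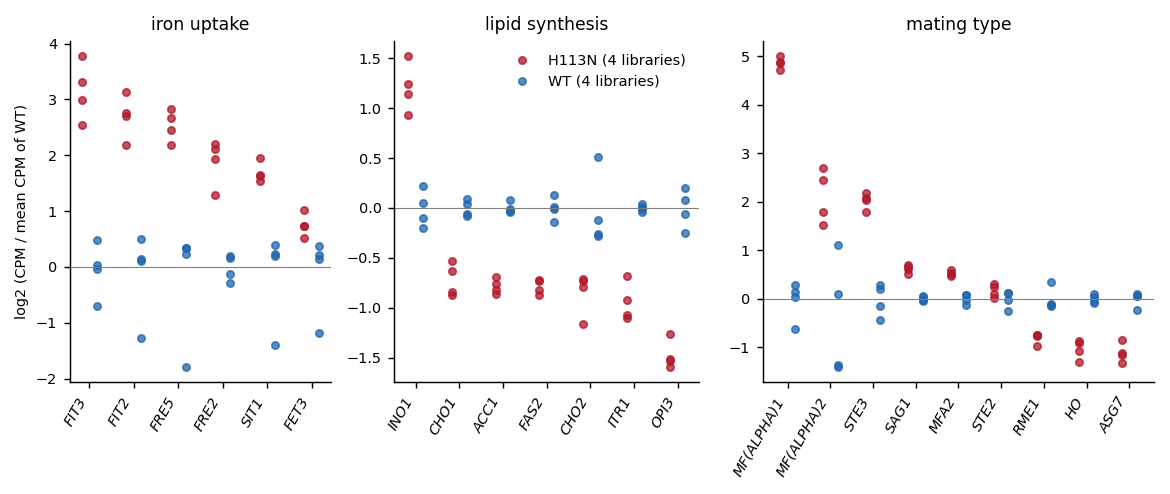
Log2 ratio of each library's CPM to the mean CPM of the 4 WT libraries for genes of iron uptake, lipid synthesis and mating type, with red points for H113N (left of each pair) and blue for WT (right). The 6 iron genes lie above WT in all 4 H113N libraries, 6 of the 7 lipid genes lie below it and INO1 above, and 1 WT library, replicate 2, is low in FIT2, FRE5, SIT1 and FET3.

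Among genes for other metals, copper handling had 2 of 10 members higher and 2 lower, shares near the 20.6% and 24.8% over all tested genes. CTR1, the high-affinity copper transporter of the cell surface, had 15.8, 15.7, 15.3 and 20.9 CPM in the H113N libraries, against 24.6, 26.8, 30.4 and 24.1 CPM in the WT libraries, so all H113N libraries lay below all WT libraries, but it did not pass in the fit of all libraries (log2 fold change -0.64 ± 0.34, adjusted p = 0.131). It passed when only the H113N and WT libraries were fitted (-0.64, adjusted p = 0.00334). CTR3, the other high-affinity copper transporter, rose (1.07 ± 0.29), while CTR2, which releases copper from the vacuole, fell (-0.47 ± 0.08), as did SOD1, the copper and zinc superoxide dismutase (-0.46 ± 0.08). In zinc homeostasis 3 of 11 rose (27.3%) and 2 fell (18.2%), also near the shares over all tested genes. COT1, a vacuolar zinc and cobalt transporter, stood at 123 ± 6.61 CPM in H113N and 86.1 ± 11.8 CPM in WT. ZRT1, the main zinc importer, averaged 4713 ± 410 CPM in H113N and 4200 ± 1043 CPM in WT and did not pass. The assembly of iron-sulfur clusters had 2 of 22 members higher and 7 lower, YFH1 among the lower, with ERV1 (-0.70 ± 0.08) at the lower end and ISD11 (0.47 ± 0.06) at the upper. In heme synthesis 3 of 10 fell (30%, against 24.8% over all tested genes), HEM15, ferrochelatase, by the most (-1.01 ± 0.08).

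Genes of lipid synthesis were mostly lower. The activators Ino2 and Ino4 bind a sequence element with the core CATGTG and drive phospholipid genes unless the repressor Opi1 is in the nucleus, and inositol in the medium turns them down. In fatty acid and phospholipid synthesis 14 of 21 members were lower and 3 higher, with a median of -0.54. OPI3 had 192, 199, 241 and 202 CPM in the H113N libraries, against 665, 609, 553 and 484 CPM in the WT libraries. CHO2, the methyltransferase before it, had 253, 264, 268 and 195 CPM in the H113N libraries, against 626, 366, 402 and 359 CPM in the WT libraries, with WT replicate 2 the high one, and CHO1, phosphatidylserine synthase, had 207, 264, 246 and 212 CPM in the H113N libraries, against 406, 391, 366 and 361 CPM in the WT libraries. In all 3 genes every H113N library lay below every WT library. ITR1, the main inositol transporter, had 1064, 1431, 1207 and 1088 CPM in the H113N libraries, against 2226, 2355, 2280 and 2306 CPM in the WT libraries. ACC1, which makes malonyl-CoA, stood at 58.1% and FAS2, a subunit of fatty acid synthase, at 58% of WT. The regulators INO2 (-0.58 ± 0.07), INO4 (-0.56 ± 0.10) and OPI1 (-0.48 ± 0.08) were also lower. INO1, inositol 3-phosphate synthase, the best-known target of Ino2 and Ino4, went the other way, with 154, 199.8, 165 and 133 CPM in the H113N libraries, against 81, 72, 64.9 and 60.6 CPM in the WT libraries (log2 fold change 1.23 ± 0.11, BH-adjusted p = 1.70e-07, edgeR).

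CATGTG, searched on both strands over the same 500 bases, was present in 12.9% of the 5155 genes, in 12 of the 21 lipid genes (57.1%) and in 10 of the 14 that fell. It was in 10 of the 39 genes that were at least 2-fold lower (25.6%) and in 31 of the 293 that were at least 2-fold higher (10.6%). The stretches below, from RefSeq R64, 5′ to 3′ on the strand of each gene, show the hexamer or its reverse complement CACATG in capitals upstream of 4 genes that fell and of INO1, which rose, so that the same letters stand before genes that moved in opposite directions. The genes other than OPI3 were chosen after their values were seen. The positions are chrX:573063-573162 (- strand), chrV:208613-208648 (- strand), chrVII:802087-802193 (+ strand), chrIV:1445668-1445874 (- strand) and chrX:136091-136191 (- strand). In CHO2 the first pair of capitals overlap in CACATGTG.
OPI3: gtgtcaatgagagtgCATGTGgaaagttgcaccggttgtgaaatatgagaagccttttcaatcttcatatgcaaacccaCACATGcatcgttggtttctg
CHO1: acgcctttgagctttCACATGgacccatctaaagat
CHO2: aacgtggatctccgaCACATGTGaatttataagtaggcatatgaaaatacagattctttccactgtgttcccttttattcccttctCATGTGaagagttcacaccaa
ITR1: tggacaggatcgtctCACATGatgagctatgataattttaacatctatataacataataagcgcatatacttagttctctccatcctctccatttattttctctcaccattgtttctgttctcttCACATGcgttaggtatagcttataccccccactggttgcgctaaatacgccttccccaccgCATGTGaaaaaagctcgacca
INO1: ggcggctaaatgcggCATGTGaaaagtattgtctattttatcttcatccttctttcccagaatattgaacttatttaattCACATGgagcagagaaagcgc

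Ergosterol synthesis had 12 of 28 members lower and 3 higher, with a median of -0.12. ARE2, which esterifies sterols for storage, had 94.5, 98.1, 108 and 98 CPM in the H113N libraries, against 204, 174, 197 and 180.2 CPM in the WT libraries, and ERG12, mevalonate kinase, averaged 78.2 ± 1.51 CPM in H113N and 112 ± 9.45 CPM in WT. Under scaling by library size alone 8 members were lower and 6 higher, so the balance in this list depended on the scaling. ECM22, an activator of sterol genes, was among the risers (0.47 ± 0.08).

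Genes that mark cell type moved in several directions. Cells of mating type a express a-specific genes and lack the alpha regulators, and haploids express HO, RME1 and NEJ1, which the a1-alpha2 repressor shuts off in diploids. All 4 tested alpha-specific genes rose. STE3, the receptor for a-factor, had 17.1, 16, 15.4 and 13 CPM in the H113N libraries, against 2.76, 4.34, 4.59 and 3.4 CPM in the WT libraries. SAG1, the alpha agglutinin, had 61.1, 64.7, 62.7 and 56.9 CPM in the H113N libraries, against 40.9, 41, 38.7 and 38.3 CPM in the WT libraries. MF(ALPHA)2, the minor alpha-factor gene, averaged 1.46 ± 0.542 CPM in H113N and 0.319 ± 0.268 CPM in WT. The filter asked for 1.17 CPM in at least 4 libraries, so MF(ALPHA)2 could not enter the test through WT, which favours a rise. STE3 and SAG1 were above that level in every WT library. Haploid genes were lower: HO, the endonuclease of mating-type switching, had 94.1, 69.7, 81.7 and 91.5 CPM in the H113N libraries, against 161, 185, 166 and 176 CPM in the WT libraries, RME1, a repressor of meiosis, had 45.1, 38.6, 44.4 and 44.7 CPM in the H113N libraries, against 95.1, 68.6, 68.1 and 69.8 CPM in the WT libraries, and NEJ1, of DNA end joining, averaged 15.3 ± 0.955 CPM in H113N and 28.4 ± 3.83 CPM in WT. HMRA1, whose reads cannot be told from those of the identical gene at the mating-type locus, averaged 26.4 ± 0.633 CPM in H113N and 25.8 ± 1.99 CPM in WT and did not pass (log2 fold change 0.03 ± 0.08). Of 7 a-specific genes 3 were higher (MFA1, MFA2, BAR1), 3 lower (AGA2, STE6, ASG7) and 1, the alpha-factor receptor STE2, did not pass, all but ASG7 within a factor of 1.5. The calls of BAR1, AGA2 and STE6 were lost in several alternatives, among them the fit of only the H113N and WT libraries for BAR1 (adjusted p = 0.0555) and AGA2 (0.0629) and scaling by library size for STE6 (0.124). ASG7 fell to 46.8% of WT.

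Genes of meiosis and sporulation, which are off in growing haploids, were mostly higher: 25 of 36 rose and 1 fell, with a median of 0.74. DIT1, of the spore wall, had 28.5, 24.3, 26.3 and 22.4 CPM in the H113N libraries, against 2.65, 2.85, 5.67 and 4.42 CPM in the WT libraries. DMC1, the meiotic recombinase, averaged 15 ± 1.47 CPM in H113N and 4.42 ± 0.907 CPM in WT, and RED1, of the meiotic chromosome axis, 33.3 ± 2.12 CPM in H113N and 23 ± 1.76 CPM in WT. SPS2, of the spore wall, averaged 5.96 ± 1.62 CPM in H113N and 0.265 ± 0.0541 CPM in WT, and because all WT libraries held 3 counts or fewer it is given as at least 16.8-fold higher. The member that fell was IME1, the master activator of meiosis (-0.96 ± 0.16). With 10 counts required in every library 22 members were tested, of which 13 rose and 1 fell. In the pheromone response 7 of 23 rose and 3 fell, with FAR1, the cell cycle arrest factor (-0.63 ± 0.10), and GPA1, the G protein alpha subunit (-0.50 ± 0.09), among the falls and PRM1, of cell fusion (1.27 ± 0.14), among the rises.

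In vitamin synthesis 19 of 27 members were higher and 2 lower, with a median of 0.97. Genes of thiamine and biotin synthesis and uptake made up most of the rises. THI7, the thiamine transporter, had 623, 597, 557 and 707 CPM in the H113N libraries, against 79.3, 187, 198 and 243 CPM in the WT libraries, with WT replicate 2 the lowest. BIO5, which takes up a biotin precursor, rose by 1.92 ± 0.24, and THI4, of the thiazole branch, by 1.47 ± 0.14 on the log2 scale. THI5, THI11, THI12 and THI13 are near copies, and their values are uncertain one by one. In the NAD pathway BNA2, its first enzyme, had 71.6, 47.2, 65.1 and 66.6 CPM in the H113N libraries, against 17, 15.1, 12.4 and 10.1 CPM in the WT libraries, whereas BNA5 had 65.2, 48.9, 67.2 and 63.4 CPM in the H113N libraries, against 166, 142, 146 and 146 CPM in the WT libraries, so genes of the same route moved in opposite directions. BNA2 overlaps YJR079W on the annotation. The lists of amino acid synthesis are set beside the 20.6% higher and 24.8% lower over all tested genes. Arginine genes had 3 of 15 higher (20%) and 4 lower (26.7%), and lysine genes 2 of 8 higher (25%) and 3 lower (37.5%). Genes of leucine, isoleucine and valine had 3 of 13 higher (23.1%) and 5 lower (38.5%). With so few members, these lists did not stand apart from all genes. In the list of histidine, aromatic and other pathways 16 of 31 fell and 5 rose, with a median of -0.23. HOM2, of the threonine and methionine route, stood at 71.2%, ARO1 at 76.5% and ASN2 at 79% of WT. SHM2, serine hydroxymethyltransferase, had 5557, 831, 6117 and 3031 CPM in the H113N libraries, against 9046, 6958, 5755 and 4703 CPM in the WT libraries, so the H113N libraries spread over a wide range, and it did not pass (adjusted p = 0.115). GCN4, the activator of amino acid genes, rose (0.45 ± 0.06). Nitrogen, glutamate and proline genes had 10 of 26 higher and 2 lower. Genes of sulfate assimilation had 4 of 23 higher and 4 lower, and without WT replicate 2, which held high levels of several of them, 14 were higher and 2 lower with a median of 0.63.

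Transcripts of stress and of the cell surface rose in part. Markers of the environmental stress response had 8 of 14 higher and 2 lower, with a median of 0.35. GRE1, of osmotic stress, had 27.7, 19.6, 27.4 and 29 CPM in the H113N libraries, against 4.26, 5.82, 5.67 and 6.68 CPM in the WT libraries, SPI1, of the cell wall in stationary phase, averaged 50.7 ± 5.28 CPM in H113N and 16.9 ± 3.58 CPM in WT, and RTN2, of the reticulon family, 55.5 ± 8.12 CPM in H113N and 21.2 ± 4.91 CPM in WT. Heat shock genes had 6 of 20 higher and 4 lower, shares near those over all tested genes, and without WT replicate 2 they had 11 higher and 4 lower. HSP82, the inducible Hsp90, had 428, 353, 387 and 417 CPM in the H113N libraries, against 172, 123, 111 and 92.1 CPM in the WT libraries, whereas its constitutive copy HSC82 fell (-0.27 ± 0.09), a call lost in 5 alternatives, among them leaving out WT replicate 2 (adjusted p = 0.0521). HSP30, a plasma membrane stress protein, averaged 15.8 ± 1.22 CPM in H113N and 4.31 ± 0.406 CPM in WT. Of the 24 PAU genes, 13 had too few counts to test. Of the 9 tested outside chromosomes I and II, 8 were higher, with a median of 2.59, or 1.70 with 3 genes at their lower bound. Only 2 of them held at least 10 counts in every library, both higher, with a median of 0.89. These genes are near copies of each other at chromosome ends, so their values one by one are uncertain. The cell wall list had 12 of 22 higher and 4 lower (7 and 4 without replicate 4), with PIR3 at 62.4 ± 17.2 CPM in H113N and 13.3 ± 3.23 CPM in WT and PST1 at 335 ± 32.8 CPM in H113N and 189 ± 6.86 CPM in WT. SED1, the most abundant of them, averaged 6974 ± 791 CPM in H113N and 4929 ± 1072 CPM in WT, a call that was lost without replicate 4 (adjusted p = 0.0713) or 5 (0.0763). Antioxidant genes had 6 of 24 higher and 9 lower (3 higher and 6 lower without replicate 4, 3 and 9 without replicate 5), TRX1 among the lower and OYE3, an NADPH oxidoreductase (1.98 ± 0.16), among the higher. Of ribonucleotide reductase and DNA damage genes 11 of 20 were higher, none was called lower and 9 did not pass, with a median of 0.38. RNR3, the damage-induced large subunit, had 34.5, 30.6, 36.5 and 35.9 CPM in the H113N libraries, against 12.3, 17.5, 14.1 and 15.2 CPM in the WT libraries. RNR1, the main one, averaged 1280 ± 105 CPM in H113N and 830.4 ± 173 CPM in WT, and SML1, an inhibitor of the enzyme, 258 ± 8.91 CPM in H113N and 152 ± 9.67 CPM in WT. Without WT replicate 2, 1 member of that list was called lower.

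Other lists moved in smaller part, and their counts stand beside 20.6% higher and 24.8% lower over all tested genes. In phosphate starvation 3 of 18 members were higher and 7 lower, PHO84 and the low-affinity transporter PHO87 (-0.49 ± 0.05) among the lower. Cyclins and cell cycle regulators had 10 of 25 lower and 3 higher, with the G1 cyclin CLN2 at 61.6% and the mitotic cyclin CLB2 at 63.4% of WT. Hypoxic and heme-responsive genes had 8 of 17 higher and 2 lower: ANB1, the form of translation factor eIF5A used at low oxygen, averaged 18 ± 0.988 CPM in H113N and 5.26 ± 1.42 CPM in WT, and TIR2, a cell wall mannoprotein, 43.5 ± 2.2 CPM in H113N and 18.4 ± 2.47 CPM in WT. Drug resistance transporters were split, 7 of 15 higher and 6 lower, with the main exporter PDR5 at 62.7% of WT and the polyamine exporter TPO2 at 1.86 times WT. In purine and pyrimidine synthesis 4 of 24 rose and 4 fell, and IMD2, of the guanine nucleotide route, rose most, with 252 ± 6.48 CPM in H113N and 71.9 ± 16.9 CPM in WT. IMD2 has near copies and 33.7% of its 50-base words are repeated elsewhere. For TPO2 that share is 41.3%, so the values of both genes are uncertain. In the pentose phosphate pathway TAL1 was the only member lowered by over 2-fold, and 2 of 10 were higher. Among nucleoporins 2 of 22 fell, among translation factors 3 of 29 rose and 2 fell, among septin, actin and budding genes 2 of 30 rose and 4 fell, and among proteasome subunits 2 of 31 rose and 6 fell, so most members of these 4 lists did not pass. Without WT replicate 2, 7 nucleoporin genes and 8 translation factor genes were lower, and without replicate 3 no proteasome gene was.

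**Figure D4:**
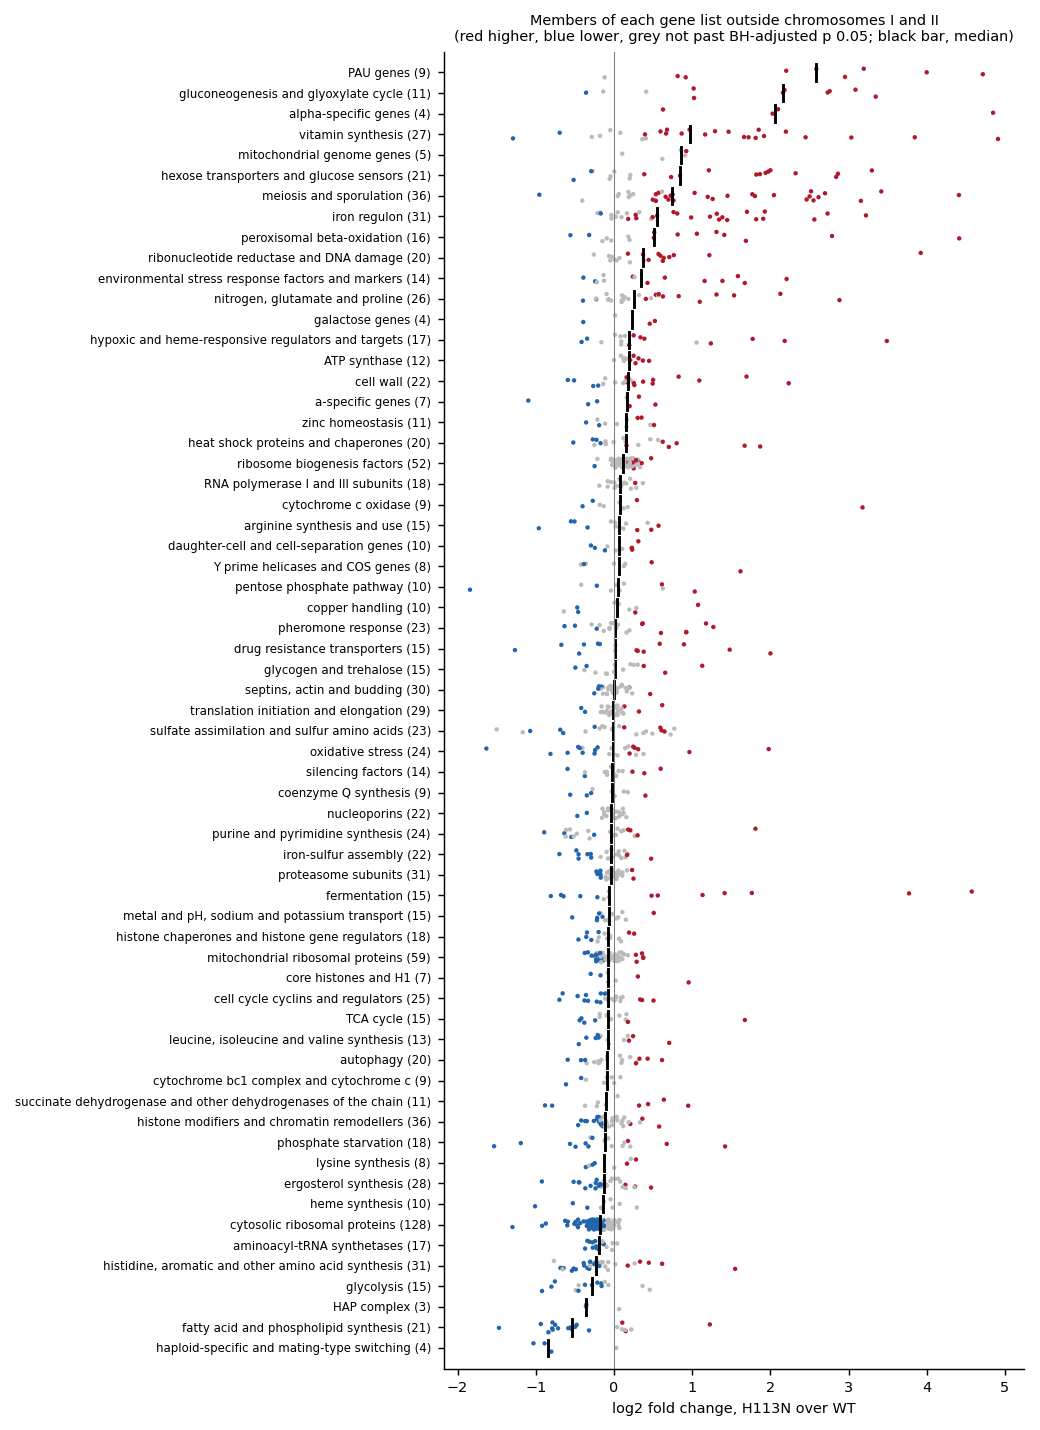
Log2 fold change, H113N over WT, of the members of each of 63 gene lists outside chromosomes I and II, sorted by the median (black bar), with the number tested in brackets. Red points are higher and blue points lower in H113N at a BH-adjusted p of 0.05 in edgeR, and grey points did not pass. The medians run from 2.59 for the PAU genes down to -0.84 for the haploid-specific genes.

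Ribosomal protein and tRNA synthetase genes were mostly lower, most by a small amount. Of 128 cytosolic ribosomal protein genes outside chromosomes I and II, 87 were lower (68%) and none was called higher, with a median of -0.18. These genes are abundant, and in the eighth of all genes with the highest level 41% were lower, with a median of -0.10. Over all tested genes 24.8% were lower. The median of the list in single H113N libraries ran from -0.20 to -0.13. The count fell to 52 without replicate 3, 50 without replicate 5 and 52 in the fit of only the H113N and WT libraries. Of all members RPS9A had the largest fall, at 40.6% of WT. RPL3 had 3642, 3701, 3903 and 4137 CPM in the H113N libraries, against 5270, 5355, 5457 and 5765 CPM in the WT libraries, RPL15A stood at 72.7% and RPL4B at 64.8% of WT. RPL4B shares 72.7% of its 50-base words with other sequence, so its value is uncertain. The fall was alike in the genes with an intron (59 of 82 lower, median -0.18) and those without (28 of 46 lower, median -0.16), while 146 other genes with an intron had a median of -0.02. Scaling by library size alone left 50 lower and 1 higher, with a median of -0.10. Aminoacyl-tRNA synthetases, which load amino acids onto tRNAs, had 12 of 17 lower and none called higher (median -0.19), with GUS1 at 80.5% and FRS2 at 78.9% of WT. Under scaling by library size alone 7 of them were lower, and 6 without replicate 4. Factors of ribosome biogenesis had 8 of 52 higher and 1 lower (3 higher and none lower without replicate 3). Their median of 0.12 turned to -0.03 without WT replicate 2.

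Genes of respiration moved in both directions, several lists with shares near the 20.6% higher and 24.8% lower over all tested genes. In cytochrome c oxidase 2 of 9 were higher and 2 lower, in the cytochrome bc1 complex with cytochrome c 2 of 9 were lower and none called higher, and in the TCA cycle 2 of 15 were higher and 4 lower (6 and 3 without WT replicate 2). COX26, a small subunit of the oxidase, had 5.15, 4.64, 6.57 and 3.27 CPM in the H113N libraries, against 0.23, 0.248, 0.965 and 0.679 CPM in the WT libraries, a rise from a very low level. COX4, a nuclear-encoded subunit, averaged 59.5 ± 6.95 CPM in H113N and 78.6 ± 11.7 CPM in WT, and its call was lost without replicate 2 (adjusted p = 0.0538) or 5 (0.056). QCR7 averaged 111 ± 7.2 CPM in H113N and 119 ± 21 CPM in WT and did not pass. Succinate dehydrogenase and the other dehydrogenases that feed the chain had 4 of 11 higher and 2 lower, and their median of -0.11 turned to 0.19 without WT replicate 2. CIR2, a flavoprotein dehydrogenase, averaged 101 ± 12.4 CPM in H113N and 187 ± 11 CPM in WT, and NDE2, an external NADH dehydrogenase, 7.79 ± 1.01 CPM in H113N and 4.04 ± 1.21 CPM in WT. Of the HAP complex, which activates respiratory genes, HAP4 (-0.36 ± 0.08) and HAP2 (-0.35 ± 0.10) were lower, with the call of HAP2 lost without replicate 2 (adjusted p = 0.0822) or 3 (0.083), and HAP5 did not pass. ATP synthase had 6 of 12 higher and none called lower (median 0.19), with ATP7 at 195, 174, 192 and 201 CPM in the H113N libraries, against 156, 133, 127 and 142 CPM in the WT libraries. Under the fits tried, 3 to 10 of its members were called higher. Mitochondrial ribosomal proteins had 5 of 59 higher and 17 lower (5 to 11 lower with a replicate number left out), and scaling by library size alone turned this to 13 higher and 4 lower. COX1, of the mitochondrial genome, is poorly caught by selection for poly(A) and averaged 2.53 ± 0.611 CPM in H113N and 1.65 ± 0.26 CPM in WT.

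The histone genes did not move as a set. Outside chromosomes I and II, HTA1, an H2A gene, had 995, 1018, 1088 and 1113 CPM in the H113N libraries, against 377, 557, 546 and 694 CPM in the WT libraries, a 1.94-fold rise (BH-adjusted p = 7.97e-06, edgeR). HTB1, the H2B gene beside it, averaged 906 ± 37.6 CPM in H113N and 733 ± 127 CPM in WT, a call that was lost without replicate 4 (adjusted p = 0.0635). HHF2 averaged 418 ± 36 CPM in H113N and 411 ± 46.9 CPM in WT and HHT2, its neighbour, did not pass either. HHO1, the linker histone, fell to 81.3% of WT, a call lost without replicate 3 (adjusted p = 0.0675), and HTZ1, the H2A variant, was near the threshold (adjusted p = 0.0483) and did not pass in 11 of the 13 alternatives. CSE4, the centromeric H3, averaged 31.8 ± 1.3 CPM in H113N and 33.5 ± 3.31 CPM in WT and did not pass. On chromosome II, HHT1 had 618, 583, 632 and 722 CPM in the H113N libraries, against 290.5, 491, 443 and 582 CPM in the WT libraries, so WT replicate 2 was the low one and the groups did not overlap (log2 fold change 0.50 ± 0.14, adjusted p = 0.00816). Its call was lost in the fit of only the H113N and WT libraries (adjusted p = 0.0532) and without replicate 4 (0.0574). HHF1, transcribed away from it, had 857, 791, 911 and 968 CPM in the H113N libraries, against 332, 444, 447 and 521 CPM in the WT libraries, a 2.02-fold rise. HTA2 averaged 346 ± 29.6 CPM in H113N and 326 ± 60.8 CPM in WT and did not pass, and HTB2 fell to 78.1% of WT. HHT1 and HHT2 share 12.2% of their 50-base words, and HHF1 and HHF2 share 21.3%. Among histone modifiers and chromatin remodellers outside chromosomes I and II 15 of 36 were lower and 3 higher, with a median of -0.11. STH1, the ATPase of the RSC remodeller, stood at 78.6% of WT, and JHD1, a demethylase of H3 lysine 36, rose to 1.49 times WT. Scaling by library size alone left 8 lower and 7 higher, and leaving out replicate 3 left 9 lower and 3 higher. Silencing factors had 3 of 14 higher and 2 lower, with SIR2 (0.11 ± 0.08), SIR3 (-0.09 ± 0.07) and SIR4 (-0.09 ± 0.06) not passing (SIR3 and SIR4 passed without replicate 2, with adjusted p of 0.0465 and 0.0117) and YKU80, of the Ku complex at telomeres, lower (-0.59 ± 0.11).

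Ty retrotransposon genes, a group chosen after the values were seen, were counted as well. Of 91 Gag and Gag-Pol genes in R64, 31 were tested. The filter asked for 1.17 CPM in at least 4 libraries, so scarce Ty genes could enter through the H113N libraries, which favours rises. Under that level in WT were, for instance, YMR050C (mean 1.05 CPM) and YLR410W-B (1.07), which rose, and YPR158W-B (0.86), which did not pass. Well above it in WT, YLR227W-B rose (95.8 CPM in H113N and 31.8 in WT), while YIL082W-A (83.9 and 79.2) did not pass. The counts are not given with a stricter filter. Outside chromosomes I and II, 23 of 27 were higher in H113N and none was called lower, with a median log2 fold change of 1.16, and on chromosomes I and II all 4 were higher, with a median of 0.91. Their sequences are almost all repeated elsewhere, so the values one by one are uncertain. The clearest of them by its test, YBL100W-B on chromosome II, had 41.8, 39.5, 39 and 38.8 CPM in the H113N libraries, against 5.53, 4.58, 4.59 and 5.89 CPM in the WT libraries, with YBL100W-A within it on the annotation.

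Genes of chromosomes I and II were shifted as a body. Of 506 tested genes, 276 passed (54.5%), of which 244 were higher (48.2%) and 32 lower (6.32%), against 20.6% and 24.8% on the other chromosomes, and 205 (40.5%) had all 4 H113N libraries above all 4 WT libraries. On chromosome I, 42 of 92 genes were higher (45.7%) and 3 lower (3.26%), with a median log2 fold change of 0.22, and on chromosome II 202 of 414 were higher (48.8%) and 29 lower (7%), with a median of 0.21. Each H113N library showed it: the median log2 ratio of its genes to the WT mean was 0.21, 0.24, 0.31 and 0.15 on chromosome I and 0.24, 0.18, 0.17 and 0.28 on chromosome II. The shift ran along both chromosomes. All 7 windows of 25 kb with at least 5 genes on chromosome I had a positive median (0.08 to 0.33), and so did all 17 windows of 50 kb on chromosome II (0.02 to 1.02). The arms had medians of 0.20 and 0.33 on chromosome I, left and right, and of 0.21 and 0.23 on chromosome II. Chromosome I took 3.14% ± 0.102 of counts in H113N and 2.83% ± 0.0744 in WT, and chromosome II took 7.78% ± 0.277 in H113N and 6.58% ± 0.0579 in WT (SD, n = 4 each). Both differences had an exact two-sided permutation p of 0.0286 over libraries, the smallest that 4 against 4 allows (0.0486 adjusted over 17 chromosomes), and 7 other chromosomes and the mitochondrial genome reached the same p, with a smaller gain on chromosome XIV and the mitochondrial genome and a loss on the rest. The shares were 3.12, 3.10, 3.29 and 3.07% in the H113N libraries against 2.88, 2.84, 2.86 and 2.72% in the WT libraries for chromosome I, and 7.79, 7.68, 7.5 and 8.16% against 6.53, 6.55, 6.58 and 6.66% for chromosome II. Among the rest only chromosome V had a median above 0.05, at 0.11 (the 6 tested genes of the mitochondrial genome, caught in few reads, had 0.81), and 11 of its 12 windows were positive. The number of copies of these chromosomes was not measured, so a change in their number and a change in transcription cannot be told apart.

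**Figure D5:**
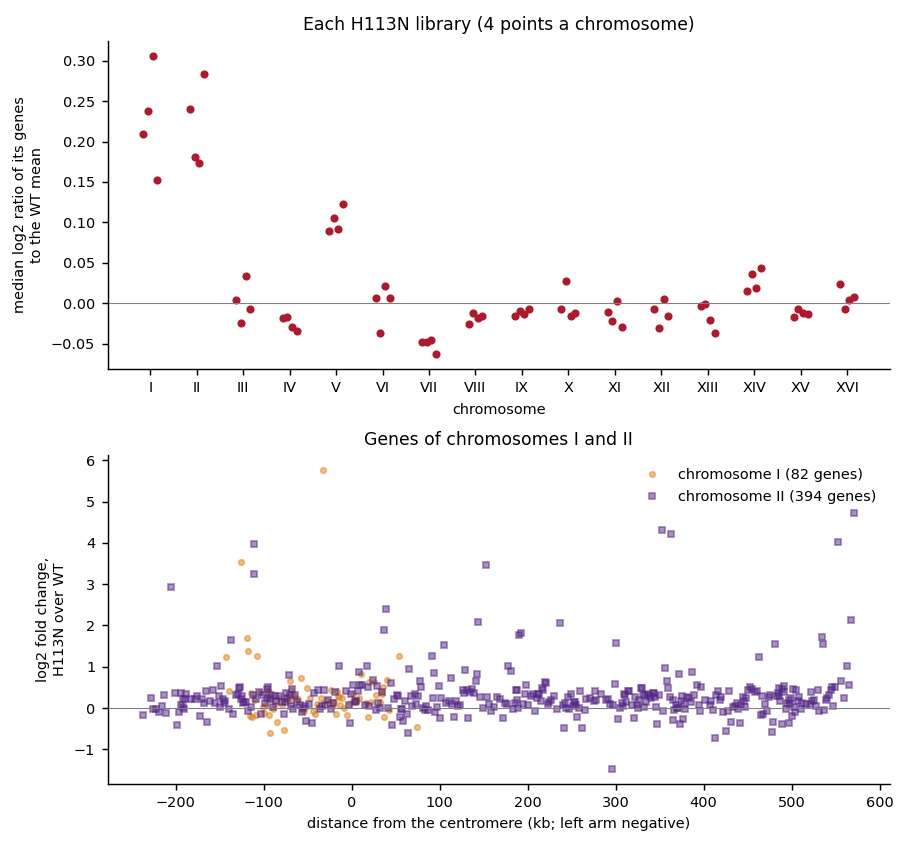
Upper panel, median over the genes of each chromosome of the log2 ratio of the library's CPM to the WT mean, with 1 point for each of the 4 H113N libraries. Lower panel, log2 fold change, H113N over WT, of tested genes of chromosomes I and II against distance from the centromere in kb. Chromosomes I and II have medians of 0.15 to 0.31 in the H113N libraries, and most genes lie above 0 along both chromosomes.

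Single genes of chromosomes I and II are given with this shift of about 0.2 in view. Among genes there whose mean log2 CPM was 3 or more, and whose groups did not overlap, PAU24 and MOH1 were with YBL100W-B the largest rises, PAU24 with 10.3, 12.5, 10.8 and 14.8 CPM in the H113N libraries, against 0.576, 0.62, 0.362 and 0.227 CPM in the WT libraries and MOH1 with 21.5, 19.2, 20.5 and 21 CPM in the H113N libraries, against 1.27, 1.49, 0.845 and 1.58 CPM in the WT libraries. Of the 50-base words of PAU24 52.9% are repeated elsewhere, and its WT levels were near the floor of 3 counts, so its value is uncertain. Both genes met the level cut through groups other than WT. By the same rule the largest falls were in ADH5, an alcohol dehydrogenase, with 22.8, 20.1, 24.5 and 22.8 CPM in the H113N libraries, against 118, 47.5, 43.8 and 41 CPM in the WT libraries, and in YBR032W (7.75 ± 1.08 CPM in H113N and 11.8 ± 2.03 CPM in WT) and YBR220C (61.9 ± 2.56 CPM in H113N and 90.8 ± 4.22 CPM in WT), which overlaps YBR219C. ADH5 was high in WT replicate 2, and without that library its log2 fold change was -0.96 with adjusted p = 1.56e-08. Members of the lists on these chromosomes that rose past 2-fold included ACS1, acetyl-CoA synthetase of the glyoxylate route, with 17.1, 19.2, 21.3 and 19.6 CPM in the H113N libraries, against 8.4, 7.68, 6.76 and 9.29 CPM in the WT libraries, and the acid phosphatases PHO3, with 1449, 1437, 1412 and 1623 CPM in the H113N libraries, against 424, 410.1, 431 and 479.9 CPM in the WT libraries, and PHO5, with 109, 93.7, 114 and 112 CPM in the H113N libraries, against 21.6, 32.3, 27.1 and 39.6 CPM in the WT libraries. The acid phosphatases rose while the phosphate transporter PHO84 fell. Of the 50-base words of PHO3 8.71% are repeated elsewhere, and of PHO5 12.3%, so their 2 rises may not be fully separate. SSA3, an inducible Hsp70, had 110, 99.6, 99.3 and 114 CPM in the H113N libraries, against 51.8, 55.5, 53.9 and 49.4 CPM in the WT libraries, and FLO9, a cell wall flocculin with 63.4% of its 50-base words repeated elsewhere, averaged 8.79 ± 1.49 CPM in H113N and 0.745 ± 0.356 CPM in WT. These are not all the list members there that rose past 2-fold. The 1 gene of sulfate assimilation called higher on these chromosomes had a log2 fold change of 4.01. Of the galactose genes clustered on chromosome II, GAL10 averaged 5.83 ± 0.971 CPM in H113N and 1.08 ± 0.606 CPM in WT and GAL7 6.23 ± 0.714 CPM in H113N and 1.7 ± 0.696 CPM in WT, while GAL1 averaged 10.5 ± 1.0 CPM in H113N and 10.4 ± 2.77 CPM in WT and did not pass. GAL1 and GAL10 overlap a non-coding gene on the annotation. CDC19, pyruvate kinase on chromosome I, averaged 16180 ± 366 CPM in H113N and 15310 ± 419.8 CPM in WT and did not pass (adjusted p = 0.118), although it passed in 4 alternatives.

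The libraries with YFH1 off hold a second set of H113N and WT cells, sharing no library with the comparison above, and the same contrast there is given for the leading genes. Outside chromosomes I and II, 1645 of the 2440 genes were also called with YFH1 off, 1306 in the same and 339 in the opposite direction. In that contrast 26.8% of all 5370 genes were called higher and 25.6% lower. Of the 344 genes at least 2-fold higher with YFH1 on, 278 were called higher with YFH1 off, and of the 39 at least 2-fold lower, 19 were called lower. The difference between the effects passed in 1623 of 5370 genes (30.2%). TAL1, for which the difference did not pass, had a log2 fold change of -1.70 with YFH1 off (adjusted p = 1.04e-12 by edgeR), and MF(ALPHA)1 had 4.07 (adjusted p = 8.85e-10). ADH2 averaged 149.8 ± 8.77 CPM in H113N and 2.72 ± 0.564 CPM in WT with YFH1 off, and POT1 25.4 ± 3.31 CPM in H113N and 0.375 ± 0.232 CPM in WT. OPI3 had no difference past the threshold there (0.01, adjusted p = 0.916), and the change between the states passed (adjusted p = 3.72e-07). The iron list had the reverse order: 22 of 31 members were lower and 2 higher in H113N with YFH1 off, with a median of -0.73 against 0.55 with YFH1 on, and 29 members passed the test of the difference. FIT3 averaged 7266 ± 331 CPM in H113N and 23800 ± 1861 CPM in WT with YFH1 off. The shift of chromosome I was not seen there, with a median of 0.000157 against 0.003 outside chromosomes I and II. On chromosome II the median was 0.04, far below that with YFH1 on.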

How the data were processed

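RNA of 16 libraries was sequenced, 8 of which are compared here, 4 H113N and 4 WT with YFH1 on. The deposited table of raw counts per gene holds whole numbers, and the authors' second deposited table holds the same counts divided by a size factor for each library (a normalized signal) together with their adjusted p-values. The submitters' processing notes name FastQC, cutadapt, HISAT2, featureCounts, DESeq2 and build sacCer3. Versions, annotation, use of strand and treatment of reads that fit several genes are not given in the sources used here. The authors' deposited table had 2680 genes under 0.05 for this pair of genotypes, and 2540 of those tested here were also called here. No column was without a sample.

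Counts of 6692 genes, 160 of them without a read, were filtered with filterByExpr (about 1.17 CPM in at least 4 libraries), which left 5876. TMM factors and edgeR 4.0.16's quasi-likelihood test (R 4.3.3, limma 3.58.1) were fitted to all 16 libraries with 1 mean for each group, and p-values were BH-adjusted over the 5876 genes with a threshold of 0.05. CPM are on TMM-scaled libraries, and ± is the SD of 4 libraries for levels and the SE for log2 fold changes. Totals per library ran from 7125906 to 8877716 counts. Replicate libraries of a group differed by more than counting noise, and none was merged (chi-square per degree of freedom at least 4.15). On simulated counts for this comparison with 5830 genes tested, 89.6% of 67 genes changed 1.5-fold, 95.5% of 67 changed 2-fold and 100% of 66 changed 4-fold were recovered. Positions, repeated 50-base words and promoter letters came from RefSeq R64, which holds 5637 of the tested genes. The share of counts by chromosome was tested with an exact two-sided permutation test.

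Members, the 63 gene lists and the tests were chosen with earlier results of these data known. Genes are named by rule: YFH1, HHT1 and HHT2. Then, among called genes whose mean log2 CPM was 3 or more and whose groups did not overlap, the 10 largest rises and falls outside chromosomes I and II and the 3 largest of each on them. From each list come the 3 members of lowest adjusted p and the most abundant one, and any member of a list of 12 or fewer. Named outside that rule, after their values were seen, are AFT1, BIO5, CHO1, CHO2, ECM22, FET3, FIT2, GCN4, GPA1, HSC82, IME1, INO1, INO2, INO4, ISU1, ITR1, MIG1, MIG2, OPI1, OYE3, RPS9A, SIR2, SIR3, SIR4, SIT1, THI4, THI7 and the Ty genes. Alternatives changed the scaling, the filter, the libraries fitted, the replicate block and the test (DESeq2 1.42.0), and left out each replicate number. Leaving out WT replicate 2 alone was chosen after seeing the data.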

Additional observations from a re-analysis of the deposited data

Results flagged for a closer look

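For the 173 genes named in the text and the shares of counts of chromosomes I and II, 350 groups of 4 libraries were tested for a library far from the other 3. In all 21 were found, each in a named gene, where chance gives about 5% of groups. The value given is the gap to the nearest library as a share of the group's range. WT replicate 2 accounted for 9 of the 21: it was high for SRY1 (0.862), ADH5 (0.916), CAT8 (0.853), CHO2 (0.841), RME1 (0.937) and BNA5 (0.852), and low for FRE5 (0.909), STH1 (0.864) and CLN2 (0.975). H113N replicate 3 was low for ADH2 (0.859), MDH3 (0.916), RME1 (0.896) and PIR3 (0.846). H113N replicate 5 was high for CTR1 (0.914) and BIO5 (0.927) and low for PRM1 (0.893), and H113N replicate 4 was low for HSC82 (0.873) and GAL10 (0.882). Among the other WT libraries, replicate 3 was high for TAL1 (0.861), replicate 4 low for ADH2 (0.936) and replicate 5 low for PIR3 (0.915).

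For 19 of the 29 leading genes, YFH1 and the H3 genes included, the effect of H113N differed between the YFH1 states by the interaction term of the edgeR fit, with BH-adjusted p under 0.05. Over all tested genes outside chromosomes I and II the share was 30.2%. Apart from YFH1 and the H3 genes, these genes were picked for their large effects with YFH1 on, which the difference subtracts. That choice favours differences toward 0, so the 19 of 29 does not measure how often effects differ. The values are the log2 fold change of H113N over WT with YFH1 off minus that with YFH1 on. The effect was lower with YFH1 off for PAU5 (-5.13), PAU24 (-3.17), YGR066C (-1.71), MOH1 (-1.62), HUG1 (-0.85), HHT1 (-0.82) and HHT2 (-0.77). It was higher for PHO84 (2.54), YGR035C (2.27), POT1 (1.69), OPI3 (1.49), ADH2 (1.22), SRY1 (1.12), TRX1 (0.90), YFH1 (0.84), DFR1 (0.46), HRI1 (0.46), ADK1 (0.41) and YBR220C (0.24). YFH1 itself was shut off in those libraries, at 10.6 ± 1.74 CPM in H113N and 7.16 ± 1.29 CPM in WT.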

How the results depend on the processing

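Of the 173 named genes, 19 had no value where at least 10 counts in every library were required. Of the 154 with a value in every alternative, 133 kept their direction and call. The other 19 kept theirs wherever they had a value, and those that did not are given with their values in the report or here. AFT1 and CDC19 passed with scaling by library size alone (adjusted p = 0.0198 and 0.00147), and CTR1 passed without replicate 2 (0.0264) and in the fit of the 8 libraries alone (0.00334). With at least 10 counts in every library, 147 genes outside chromosomes I and II were at least 2-fold higher, against 344. Scaling by library size alone left 20 genes lower on chromosomes I and II, against 32, and put the chromosome medians at 0.2894 (I) and 0.2872 (II), against 0.22 and 0.21. It made 62.3% of calls outside them higher, against 45.4%, with the median of all genes at 0.08. Without replicate 4, 1173 genes differed by YFH1 state, against 1808. Leaving out a replicate number or WT replicate 2 gave 2025 to 2998 calls in all, 1798 to 2698 outside chromosomes I and II (846 to 1265 higher, 917 to 1433 lower, 332 to 374 at least 2-fold higher, 38 to 45 lower), 224 to 300 on them (201 to 265 higher, 20 to 35 lower), 1173 to 2255 differing by YFH1 state and 2471 to 3471 with YFH1 off. The gain in share of counts was 0.279 to 0.3467 points on chromosome I and 1.104 to 1.297 on chromosome II, with p = 0.1 in the exact permutation test without each replicate number, the smallest that 3 against 3 allows, and p = 0.0286 for both chromosomes without WT replicate 2 alone. The medians were 0.1974 to 0.2392 and 0.1976 to 0.2497.

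Of the 63 list medians, 12 changed sign under scaling by library size alone, 5 with TMM factors from genes outside chromosomes I and II, 4 with at least 10 counts in every library, 2 with the replicate block, 2 to 13 without a replicate number and 11 without WT replicate 2 alone. All of these medians were within 0.12 of 0 as reported. Those below were farther from 0 than the SD of the list's median over the H113N libraries. Scaling by library size alone gave 0.03155 for proteasome subunits, 0.001687 for histone chaperones and 0.003726 for metal and pH transport. Leaving out a replicate number, or WT replicate 2 alone, gave medians of -0.177 to 0.1161 for autophagy, -0.1961 to 0.09741 for cytochrome bc1 and cytochrome c, -0.08754 to 0.02914 for the proteasome, -0.02551 to 0.2126 for ribosome biogenesis, -0.06154 to 0.1419 for RNA polymerases I and III and -0.1048 to 0.01351 for the histones. All but the histones turned without replicate 2 and without WT replicate 2, and the histones turned without replicate 5. The causes were not tested.

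Same-numbered libraries deviated together weakly (correlations 0.0509, 0.0343, -0.173 and 0.167), so the numbers are not taken as pairs. With the replicate block 2716 genes were called, the same number as without it, and 2440 outside chromosomes I and II. DESeq2 called 2718 and 2436. DESeq2 gave no value for the difference by YFH1 state, and the fit of the 8 libraries alone gave none for YFH1 off. Depth limits statements on transcripts near 0.33 to 0.39 CPM, the level of 3 counts.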
